A study of Homo sapiens with 9 samples.

Results

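A set of 10 chromatin genes that are altered in myeloid leukaemia was followed at the level of the gene, the isoform and the listed splicing event: KMT2D, SETD1A, KDM6A, EZH2, ASXL1, BCOR, MGA, DNMT3A, TET2 and SMARCC1. The genes were listed by name, with earlier results of these data known. All 10 were found among the 58214 genes to which the quantified transcripts were joined. RNA was sequenced from K562, a human erythroleukaemia cell line, in 9 poly(A) libraries of 3 groups with 3 libraries each. The SCR group received a non-targeting siRNA, the DHX34 knockdown an siRNA pool against DHX34, an RNA helicase linked to nonsense-mediated decay (NMD), and the UPF1 knockdown siRNAs against UPF1, a core helicase of that pathway. The cells were not otherwise modified, were transfected in 2 rounds and were harvested on day 4, so each knockdown is a partial and transient depletion in 1 cell line. NMD removes transcripts whose reading frame ends too early.

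Genes are packed into chromatin whose histone and DNA marks set how readily they are read. KMT2D and SETD1A place methyl groups on lysine 4 of histone H3, KDM6A takes methyl groups off lysine 27, and EZH2, the catalytic subunit of Polycomb repressive complex 2, puts them there. BCOR and MGA belong to variant forms of Polycomb repressive complex 1, ASXL1 is a partner of the BAP1 enzyme that removes ubiquitin from histone H2A, DNMT3A methylates DNA, TET2 oxidizes that mark, and SMARCC1 is a core subunit of the SWI/SNF remodelling complexes. In leukaemia several of these genes carry loss-of-function mutations, and EZH2 and other members can also be altered through the splicing of their transcripts.

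Library totals ran from 73478797 to 103625443 expected counts. The targeted genes fell as labelled: DHX34 was at 18.2 to 19.4 TPM (transcript abundance scaled for length and depth) in SCR and at 9.40 to 11.05 TPM in its knockdown, and UPF1 was at 46.4 to 51.4 and at 22.9 to 23.2 TPM. The 6 K562 markers summed to 7634 to 7901 TPM in SCR, 7647 to 8170 TPM after DHX34 knockdown and 5235 to 5557 TPM after UPF1 knockdown. Of 10 markers of other cell types, CD8A and MS4A1 were at 0 in every library, and the list summed to 403.1 to 407.7, 437.1 to 445.5 and 335.3 to 339.4 TPM, mostly KRT8 and EPCAM. DHX34 knockdown replicate 3 stood apart from its group, with a chi-square per gene of 20.2 and 22.4 against the other libraries of that group, where all other pairs within groups lay between 5.71 and 9.59. Across all genes the log2 fold change rose with transcript length in both knockdowns (Spearman rho of 0.236 over 17004 genes for DHX34 and 0.153 over 17184 genes for UPF1), and the chromatin genes have long transcripts, from 2174 bases (EZH2) to 18429 bases (KMT2D) in mean effective length. Values after removal of this trend are given below beside the calls of the 10 genes, and for other genes where the call was lost. The labels number the samples of each group 1 to 3, and the study's methods call them biological replicas.

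In the SCR libraries the levels per length (TPM) of the 10 genes spanned 73.6-fold. EZH2 was highest at 87.5 ± 1.13 TPM (SD, n = 3), a level above 90.9% of all genes tested. SMARCC1 followed at 66.4 ± 4.63 TPM. BCOR (31.4 ± 1.92 TPM) and ASXL1 (29.0 ± 2.04 TPM) overlapped each other, and SETD1A stood alone at 15.9 ± 1.74 TPM. KDM6A (6.22 ± 0.41 TPM), MGA (5.71 ± 0.32), KMT2D (5.25 ± 0.42) and DNMT3A (4.90 ± 0.091) formed a run in which each neighbour overlapped the next. TET2 was lowest at 1.19 ± 0.092 TPM, below all libraries of the other genes.

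**Figure D1:**
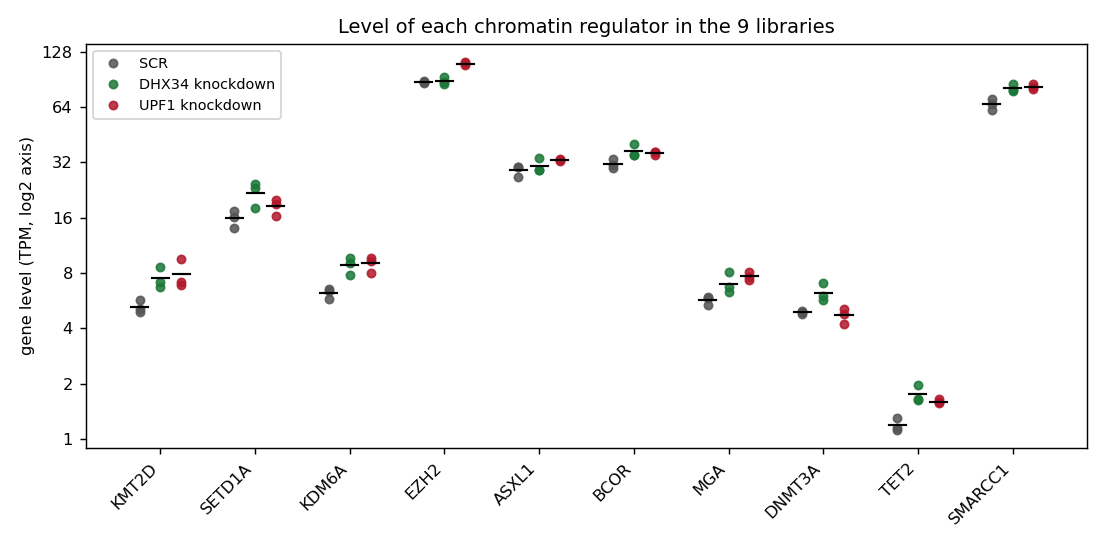
Level of each gene in TPM on a log2 axis, one point per library and a black bar at the mean of each group of 3 libraries. The genes run from TET2 near 1 TPM to EZH2 near 87.5 TPM in SCR, and the differences between groups are small beside the differences between genes.

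The first question was which of the regulators differ from SCR once DHX34 or UPF1 is depleted, and the second was where the depletions differ from each other. Genes were tested with edgeR's quasi-likelihood test on summed expected counts, with Benjamini-Hochberg adjustment over all genes and a call at an adjusted p of at most 0.005. All 10 genes passed the low-count filter in every comparison. After DHX34 knockdown 3 of the 10 rose (KMT2D, KDM6A, TET2) and 0 fell, where 5.54% of all genes tested rose and 4.86% fell. After UPF1 knockdown 3 rose (KDM6A, ASXL1, MGA) and 0 fell, where 12.4% of all genes rose and 12.9% fell. On the log2 scale the 10 genes had a median of 0.13 after DHX34 knockdown and 0.14 after UPF1 knockdown, against 0.02 over all genes in each. These medians and calls are without removal of the length trend. With it removed, the DHX34 estimates were below 0 for EZH2 (-0.16), MGA (-0.084), SMARCC1 (-0.081), BCOR (-0.027) and ASXL1 (-0.0058). They were above 0 for SETD1A (0.0094), DNMT3A (0.10), KMT2D (0.10), KDM6A (0.19) and TET2 (0.24). The 3 DHX34 calls were then lost, and of the 3 UPF1 calls KDM6A alone held. Both comparisons use the same SCR libraries. Between the knockdowns 1 gene was higher after UPF1 knockdown (EZH2) and 1 lower (SETD1A), where 9.89% and 7.47% of all genes were.

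**Figure D2:**
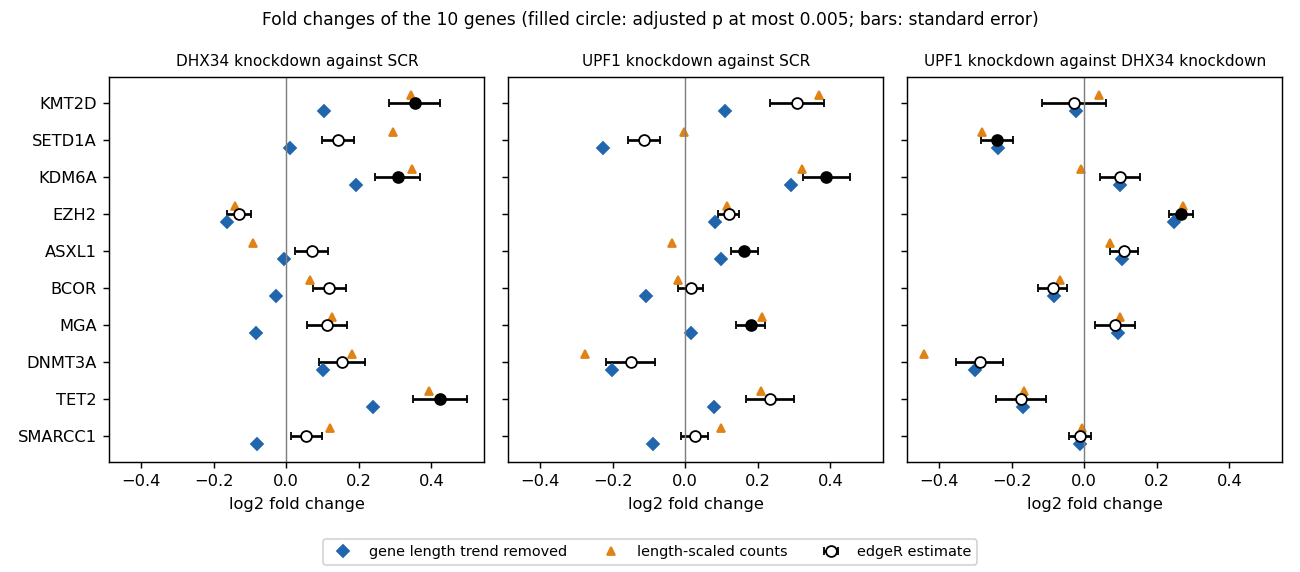
Log2 fold change of each gene in the 3 comparisons, with its standard error (circles, filled where the adjusted p is at most 0.005), after the gene length trend was removed (diamonds) and from length-scaled counts (triangles). In the 2 comparisons with SCR the diamonds lie to the left of the circles, and in the third comparison they lie close to them.

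Among the histone H3 lysine 4 genes, KMT2D (ENSG00000167548, chr12:49018975-49060794 on GRCh38) was at 101, 107 and 94.6 CPM (counts scaled to library size with TMM factors) in the SCR libraries, at 116, 127 and 144 CPM after DHX34 knockdown and at 144, 117 and 116 CPM after UPF1 knockdown. Both knockdowns lay above all SCR libraries. The rise was 0.35 on the log2 scale after DHX34 knockdown (SE 0.070, edgeR adjusted p 0.00394). After UPF1 knockdown the estimate was 0.31 (SE 0.074, edgeR adjusted p 0.00539), outside the threshold. The labels state no pairing of libraries. With the replicate number taken as a block the UPF1 estimate of KMT2D passed (edgeR adjusted p 0.00335). The DHX34 call was lost with the same block (edgeR adjusted p 0.00747) and with length-scaled counts (edgeR adjusted p 0.0117). After removal of the length trend the estimates were 0.10 and 0.11 and neither passed (edgeR adjusted p 0.127 and 0.135). The DHX34 call was lost without any one of the SCR libraries or without DHX34 knockdown replicate 2 (edgeR adjusted p 0.00793 to 0.0267) and held without DHX34 knockdown replicate 1 or 3.

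SETD1A (ENSG00000099381, chr16:30957294-30984664) was at 91.9, 94.6 and 87.4 CPM in SCR, at 97.2, 100.1 and 106 CPM after DHX34 knockdown and at 88.6, 84.9 and 81.0 CPM after UPF1 knockdown. All DHX34 knockdown libraries lay above SCR, and the UPF1 knockdown libraries overlapped SCR. Neither difference from SCR passed (log2 0.14, edgeR adjusted p 0.0357, and -0.11, edgeR adjusted p 0.0533). After removal of the length trend SETD1A was called lower after UPF1 knockdown (log2 -0.23, edgeR adjusted p 0.000964). The difference between the knockdowns passed, with SETD1A lower after UPF1 knockdown by -0.24 on the log2 scale (SE 0.044, edgeR adjusted p 0.0019). This call was lost without DHX34 knockdown replicate 2 and without UPF1 knockdown replicate 2 or 3 (edgeR adjusted p 0.0068, 0.0121 and 0.0112), and with length-scaled counts (edgeR adjusted p 0.0741).

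KDM6A (ENSG00000147050, chrX:44873188-45112779), the lysine 27 demethylase that works in one complex with KMT2D, rose in both knockdowns. It was at 28.3, 25.9 and 30.8 CPM in SCR, at 35.3, 33.5 and 36.6 CPM after DHX34 knockdown and at 34.4, 38.6 and 38.9 CPM after UPF1 knockdown. No knockdown library overlapped SCR. The rise was 0.31 after DHX34 knockdown (SE 0.062, edgeR adjusted p 0.00437) and 0.39 after UPF1 knockdown (SE 0.064, edgeR adjusted p 0.000407), both on the log2 scale. The UPF1 call held when any one library was left out (edgeR adjusted p 0.00021 to 0.00326) and after removal of the length trend (log2 0.29, edgeR adjusted p 0.00417), and was lost with length-scaled counts (log2 0.32, edgeR adjusted p 0.0183). The DHX34 call held without SCR replicate 3 and was lost in each of the other fits that left out a library (edgeR adjusted p 0.00818 to 0.0275) and after removal of the length trend (log2 0.19, edgeR adjusted p 0.0479). It was lost with length-scaled counts (edgeR adjusted p 0.029) and held with the replicate block (edgeR adjusted p 0.00406).

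Among the Polycomb genes, EZH2 (ENSG00000106462, chr7:148807257-148884321) was at 195, 193 and 199.9 CPM in SCR, at 181, 175 and 182 CPM after DHX34 knockdown and at 207, 215 and 219.7 CPM after UPF1 knockdown. The 3 groups did not overlap, with the DHX34 knockdown lowest and the UPF1 knockdown highest. Against SCR the log2 estimates were -0.13 (edgeR adjusted p 0.0155) and 0.12 (edgeR adjusted p 0.00636), neither called. After removal of the length trend the DHX34 estimate was -0.16 and was called (edgeR adjusted p 0.00361). DESeq2 called EZH2 lower after DHX34 knockdown and higher after UPF1 knockdown (DESeq2 adjusted p 0.00221 and 0.00209). On the TPM scale, where fold changes are of log2(TPM + 0.5), the DHX34 estimate was 0.03. Between the knockdowns EZH2 was higher after UPF1 knockdown by 0.27 (SE 0.033, edgeR adjusted p 0.000113), and this call held in every alternative fit run for it, including each fit that left out a library (edgeR adjusted p 3.5e-05 to 0.00144).

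ASXL1 (ENSG00000171456, chr20:32358330-32439319) was at 86.2, 94.0 and 91.8 CPM in SCR, at 92.8, 92.8 and 100.4 CPM after DHX34 knockdown and at 100.5, 105 and 101 CPM after UPF1 knockdown. The UPF1 knockdown lay above SCR without overlap, and the DHX34 knockdown overlapped it. ASXL1 rose after UPF1 knockdown by 0.16 on the log2 scale (SE 0.037, edgeR adjusted p 0.00366). The call held without SCR replicate 2 and was lost without any other library (edgeR adjusted p 0.00961 to 0.024) and after removal of the length trend (log2 0.10, edgeR adjusted p 0.0261). With length-scaled counts the estimate was -0.04 (edgeR adjusted p 0.609), a change of sign.

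MGA (ENSG00000174197, chr15:41621134-41773081), a DNA-binding partner of MAX, was at 55.2, 58.4 and 60.5 CPM in SCR, at 60.2, 59.5 and 68.8 CPM after DHX34 knockdown and at 66.8, 64.1 and 67.4 CPM after UPF1 knockdown. The UPF1 knockdown lay above SCR, and the DHX34 knockdown overlapped it. MGA rose after UPF1 knockdown by 0.18 on the log2 scale (SE 0.040, edgeR adjusted p 0.00351). After removal of the length trend the estimate was 0.02 (edgeR adjusted p 0.757). The call held without SCR replicate 3 and was lost without any other library (edgeR adjusted p 0.00603 to 0.0205). BCOR (ENSG00000183337, chrX:40049815-40177329) ranged from 179.7 to 196 CPM in SCR, from 198 to 216 after DHX34 knockdown and from 187 to 194 after UPF1 knockdown, and was called in no comparison (edgeR adjusted p 0.0746, 0.773 and 0.118 between the knockdowns).

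Of the DNA methylation genes, DNMT3A (ENSG00000119772, chr2:25227855-25342590) was at 12.96, 13.8 and 12.95 CPM in SCR, at 15.001, 14.4 and 14.8 CPM after DHX34 knockdown and at 11.1, 12.3 and 12.6 CPM after UPF1 knockdown. The DHX34 knockdown lay above SCR and the UPF1 knockdown below it. Neither difference from SCR passed (log2 0.15, edgeR adjusted p 0.0976, and -0.15, edgeR adjusted p 0.0943). The difference between the knockdowns, -0.29 on the log2 scale (SE 0.065), did not pass (edgeR adjusted p 0.00591). It passed with all 9 libraries in one fit (edgeR adjusted p 0.00224) and after removal of the length trend (edgeR adjusted p 0.00379). DNMT3A was called there in 4 of 8 such alternative fits and in 0 of 6 fits that left out a library. TET2 (ENSG00000168769, chr4:105145875-105279816) was at 10.1, 11.1 and 10.2 CPM in SCR, at 13.7, 13.3 and 15.2 CPM after DHX34 knockdown and at 12.5, 11.9 and 12.7 CPM after UPF1 knockdown. All knockdown libraries lay above SCR. TET2 had the largest estimate of the 10 after DHX34 knockdown, a rise of 0.42 on the log2 scale (SE 0.075, edgeR adjusted p 0.00211), and was not called after UPF1 knockdown (log2 0.23, edgeR adjusted p 0.0137). The DHX34 call held without DHX34 knockdown replicate 2 or 3 and was lost without any one of the other libraries (edgeR adjusted p 0.00536 to 0.0141) and after removal of the length trend (log2 0.24, edgeR adjusted p 0.0192). It was also lost with the replicate block (edgeR adjusted p 0.00773) and with length-scaled counts (edgeR adjusted p 0.0176).

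SMARCC1 (ENSG00000173473, chr3:47585269-47782106) did not pass as a gene, with 358 to 396 CPM in SCR, 393 to 404 after DHX34 knockdown and 383 to 399 after UPF1 knockdown (edgeR adjusted p 0.391 and 0.619, and 0.816 between the knockdowns). On the log2(TPM + 0.5) scale its estimate after UPF1 knockdown was 0.32 and passed (limma adjusted p 0.00274).

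SMARCC1 is read mainly as a long and a short isoform. SMARCC1-201 (ENST00000254480) is the protein-coding form, and SMARCC1-202 (ENST00000425518) starts at another first exon, chr3:47782022-47782106 on the minus strand, and has no annotated reading frame. The spliced windows below, read from GRCh38 by the GENCODE models, show the last bases of each first exon in capitals and the shared second exon in lower case. Their outer bases lie at chr3:47772922-47781617 and chr3:47772922-47782036.
SMARCC1-201: AAGCACTACAAGAAGtatgttcatgcggat
SMARCC1-202: ACGTGCTATTCCAAGtatgttcatgcggat
SMARCC1-202 was at 5.81, 8.46 and 6.56 TPM in SCR, at 15.6, 17.9 and 17.5 TPM after DHX34 knockdown and at 14.8, 18.3 and 16.1 TPM after UPF1 knockdown. All knockdown libraries lay above all SCR libraries, and the 2 knockdowns overlapped. Its share of the gene's TPM was 9.42% to 11.9% in SCR, 19.7% to 22.8% after DHX34 knockdown and 18.5% to 21.5% after UPF1 knockdown. SMARCC1-201 itself was at 54.1 to 61.0, 59.4 to 64.8 and 63.0 to 63.6 TPM. As a single transcript SMARCC1-202 was not called (log2 1.14, edgeR adjusted p 0.0155, and 1.00, edgeR adjusted p 0.00815). Between the knockdowns its estimate was -0.11 (edgeR adjusted p 0.608).

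Transcript usage, the share of each isoform within its gene, was tested with diffSpliceDGE at an adjusted p of at most 0.05. After DHX34 knockdown 2 of the 10 genes were called (SMARCC1 and MGA), where 3.55% of all genes tested were. After UPF1 knockdown 1 was called (SMARCC1), where 6.28% of all genes were, and between the knockdowns 1 (MGA), where 4.41% were. SMARCC1 and MGA have splicing events listed from these same libraries, so these counts are given as a description. SMARCC1 had an adjusted p of 5.08e-05 after DHX34 knockdown and 0.000121 after UPF1 knockdown by diffSpliceDGE, with SMARCC1-202 as its leading transcript in both, and the calls held when any one library was left out. In limma on transcript shares the adjusted p was 0.0543 and 0.0416. In data simulated from the DHX34 and SCR libraries, single transcripts were changed 4-fold without an opposite change of another isoform. There diffSpliceDGE recovered 53 of 175 genes with a changed transcript, beside 85 calls of unchanged genes. Of all its calls 61.6% were false.

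MGA was called with MGA-210 (ENST00000570161) as its leading transcript after DHX34 knockdown (diffSpliceDGE adjusted p 0.000325) and between the knockdowns (adjusted p 4.84e-06 by diffSpliceDGE). MGA-210 held 1101, 1373 and 1679 expected counts in the SCR libraries, 0 in all 3 DHX34 knockdown libraries, and 440, 525 and 180 after UPF1 knockdown. Against a floor of 3 counts per library it was at least 490-fold lower after DHX34 knockdown than in SCR. MGA-201 (ENST00000219905), another long protein-coding form named after its values were seen, ran the other way, from 0 to 0.75 TPM in SCR to 2.03 to 3.20 after DHX34 knockdown and 1.67 to 2.24 after UPF1 knockdown. The sum of MGA-201 and MGA-210 was 1.58 to 2.50 TPM in SCR, 2.03 to 3.20 TPM after DHX34 knockdown and 2.25 to 2.57 TPM after UPF1 knockdown, so the groups overlapped once both forms were added. The isoform with the highest mean TPM over the 9 libraries, MGA-202 (ENST00000545763), held 31.5% to 48.0% of the gene's TPM in SCR, 26.7% to 41.5% after DHX34 knockdown and 40.8% to 41.7% after UPF1 knockdown. After DHX34 knockdown MGA-201 had the higher mean share (38.6% ± 10.96 against 35.5% ± 7.79 for MGA-202, SD, n = 3), and the libraries overlapped. Salmon divides reads that fit several isoforms among them. The models of MGA-202 and MGA-210 are 11413 and 11859 bases long in the files and 6718 and 7888 bases in GENCODE 44, so their biotypes and ends may differ from those used for counting. When isoforms with a mean under 1 TPM over the compared libraries were left out, MGA was not called (diffSpliceDGE adjusted p 0.612 for the DHX34 knockdown and 0.714 between the knockdowns). MGA-210 was itself left out there, with group means of 1.59 TPM in SCR, 0 after DHX34 and 0.44 after UPF1 knockdown. That fit therefore could not test it. In limma on transcript shares MGA was called after DHX34 knockdown (limma adjusted p 0.00177) and not between the knockdowns (limma adjusted p 0.128).

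In fits of single transcripts 56 isoforms of the 10 genes were tested after DHX34 knockdown, 59 after UPF1 knockdown and 61 between the knockdowns. MGA-210 was the 1 isoform called after DHX34 knockdown (edgeR adjusted p 0.00381), where 0.0463% of all transcripts were called. It lost its call whenever any one library was left out (edgeR adjusted p 0.0148 to 0.0376). After UPF1 knockdown edgeR called 0 of the 59, where 2.59% of all transcripts were called. There 10 had an unadjusted p under 0.05, and DESeq2 called 8. Between the knockdowns edgeR called 0 of the 61, where 1.05% of all transcripts were, with 11 at an unadjusted p under 0.05, and DESeq2 called 2. In the simulated data 32% of transcripts changed 4-fold were recovered by this test.

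**Figure D3:**
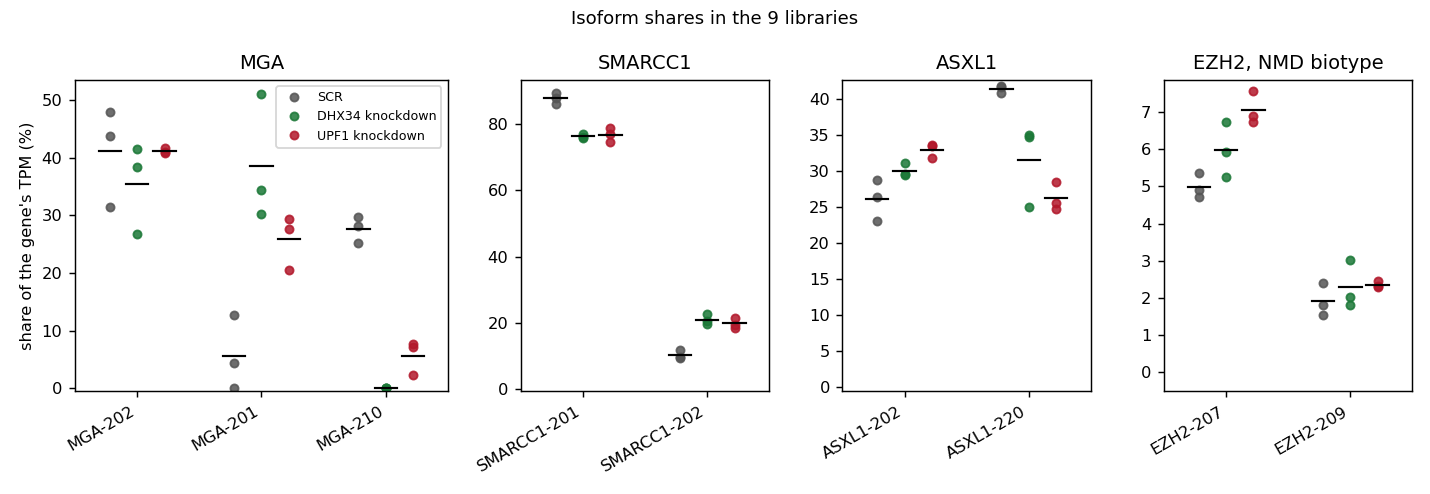
Share of the gene's TPM held by isoforms of MGA, SMARCC1, ASXL1 and EZH2, one point per library and a black bar at the mean of each group; each panel has its own axis. MGA-210 lies at 0 after DHX34 knockdown while MGA-201 lies higher than in SCR, and SMARCC1-202 holds about 20% in both knockdowns against about 10% in SCR.

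The isoform of ASXL1 with the highest mean TPM over the 9 libraries was a short one. ASXL1-220 (ENST00000646367, chr20:32358349-32372549, 1065 bases) ends in an alternative last exon, whereas the full-length ASXL1-202 (ENST00000375687) goes on to the exons further downstream. The windows below (plus strand, outer bases chr20:32369109-32428142 and chr20:32369109-32372178) show the shared exon in lower case and the next exon in capitals, at the point where the isoforms part.
ASXL1-202: cttttcacgctcaagAAGGATGCCCTGCAG
ASXL1-220: cttttcacgctcaagGTGTGAGCCACTGCA
ASXL1-220 was at 11.1, 12.3 and 12.6 TPM in SCR, at 10.2, 10.1 and 8.40 TPM after DHX34 knockdown and at 9.38, 8.06 and 8.51 TPM after UPF1 knockdown. All knockdown libraries lay below all SCR libraries. Its share of the gene's TPM was 40.7% to 41.7% in SCR, 25.0% to 34.9% after DHX34 knockdown and 24.7% to 28.5% after UPF1 knockdown. The full-length ASXL1-202, named after its values were seen, was at 6.97 to 7.998 TPM in SCR, 8.60 to 9.89 TPM after DHX34 knockdown and 10.4 to 11.1 TPM after UPF1 knockdown, where it lay above ASXL1-220 in all 3 libraries. Neither isoform was called after UPF1 knockdown, with log2 estimates of -0.71 (edgeR adjusted p 0.0097) for ASXL1-220 and 0.27 (edgeR adjusted p 0.0234) for ASXL1-202. The usage test did not call ASXL1 (diffSpliceDGE adjusted p 0.732).

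Isoforms with the NMD biotype, those that GENCODE marks as likely NMD substrates, were compared with the protein-coding isoforms of the same gene as a log2 ratio of TPM. Of the 10 genes 4 had enough of such isoforms to be tested (EZH2, ASXL1, SMARCC1 and DNMT3A). With limma 0 of the 4 were called after DHX34 knockdown, where 0.218% of all genes tested were, and 0 had an unadjusted p under 0.05. After UPF1 knockdown 0 of the 4 were called, where 14.8% were, and 2 had an unadjusted p under 0.05 (EZH2 and ASXL1). Between the knockdowns 0 of the 4 were called, where 13.4% were, and 0 had an unadjusted p under 0.05. After UPF1 knockdown the log2 differences were 0.47 for EZH2 (limma adjusted p 0.141), 0.51 for ASXL1 (limma adjusted p 0.115), 2.55 for SMARCC1 (limma adjusted p 0.18) and -0.86 for DNMT3A (limma adjusted p 0.387). Over all genes tested the median was 0.46 in that comparison.

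EZH2 carried the most NMD-biotype RNA in TPM. EZH2-207 (ENST00000483012) includes an exon of 179 bases at chr7:148836822-148837000 (minus strand) that the main isoform EZH2-203 lacks. It lies in the annotated reading frame of EZH2-207, and its length is not a multiple of 3. The exon is printed in lower case, followed by the spliced window around the annotated stop of EZH2-207 (outer bases chr7:148832727-148836827) and the stop of a second form, EZH2-209 (ENST00000492143, chr7:148819025-148819054), each with its stop codon in capitals.
EZH2-207 exon: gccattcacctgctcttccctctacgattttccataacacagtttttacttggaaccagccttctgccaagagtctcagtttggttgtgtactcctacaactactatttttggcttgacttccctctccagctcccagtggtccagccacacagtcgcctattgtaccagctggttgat
EZH2-207 stop: gttgattgttcggTGAccagtgacttggat
EZH2-209 stop: cctacctaggaacTAAatgggtatatattg
EZH2-207 was at 4.62, 4.34 and 4.12 TPM in SCR, at 5.21, 4.52 and 6.31 TPM after DHX34 knockdown and at 7.44, 8.37 and 7.53 TPM after UPF1 knockdown. The UPF1 knockdown libraries lay above all others, and the DHX34 knockdown overlapped SCR. The log2 estimate after UPF1 knockdown was 0.59 (edgeR adjusted p 0.0184), outside the threshold, and limma on log2(TPM + 0.5) passed it with an estimate of 0.77 (limma adjusted p 0.00337). EZH2-209 was at 1.35 to 2.08, 1.56 to 2.83 and 2.49 to 2.75 TPM. Together the pair held 6.90% ± 0.78 of the gene's TPM in SCR, 8.26% ± 1.37 after DHX34 knockdown and 9.41% ± 0.38 after UPF1 knockdown (SD, n = 3). EZH2-203 held 43.3% to 48.3%, 42.9% to 46.1% and 41.9% to 44.7%.

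The NMD-biotype isoforms of ASXL1 held 8.98% ± 0.42, 10.5% ± 2.19 and 11.9% ± 1.07 of its TPM in SCR, the DHX34 knockdown and the UPF1 knockdown (SD, n = 3). The isoforms were ASXL1-217 at 1.49 to 2.13, 0.75 to 2.74 and 1.82 to 2.13 TPM, ASXL1-214 at 0.25 to 0.49, 0.60 to 0.71 and 0.76 to 0.83 TPM, and ASXL1-210 at 0 to 0.10, 0.070 to 0.76 and 0.43 to 0.77 TPM. ASXL1-214 was higher in every knockdown library than in every SCR library, at 15 to 37 expected counts in SCR and 35 to 62 in the knockdowns. The NMD-biotype isoform of SMARCC1, SMARCC1-203, was listed at 0 in all SCR libraries, above 0 in 1 DHX34 knockdown library (0.62 TPM) and above 0 in 2 UPF1 knockdown libraries (1.36 and 1.66 TPM). Without UPF1 knockdown replicate 1, where it was at 0, the ratio of SMARCC1 passed the test (limma adjusted p 0.0144). DNMT3A varied within its groups, from 2.62% to 13.2% in SCR and from 0.25% to 3.49% after UPF1 knockdown. KMT2D, MGA, SETD1A and BCOR had none of their TPM in this biotype.

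KMT2D-201 held 90.1% to 98.5% of KMT2D in SCR and 84.6% to 94.6% across the knockdowns. SETD1A-201 held 82.7% to 92.4% in SCR and 69.0% to 86.5% across the knockdowns. BCOR-205 held 38.5% to 44.7% in SCR and 39.3% to 50.2% across the knockdowns, DNMT3A-203 held 47.2% to 55.0% and 45.8% to 62.1%, and TET2-203 held 65.3% to 74.8% and 41.8% to 75.3%. KDM6A-210, the leading form of KDM6A, held 21.0% to 25.7% in SCR, 15.4% to 21.5% after DHX34 knockdown and 24.5% to 35.4% after UPF1 knockdown. BCOR-210, named after its values were seen, was at 1.40 to 1.85 TPM in SCR, 0.43 to 0.83 TPM after DHX34 knockdown and 0.73 to 1.09 TPM after UPF1 knockdown, and was not called (edgeR adjusted p 0.0553 and 0.0301).

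The deposited splicing tables list events of 4 of the genes. SETD1A, SMARCC1 and KMT2D are listed for both knockdowns and MGA for the DHX34 knockdown. The KMT2D event is a skipped exon and the others are alternative first exons. The SMARCC1 event is the choice of first exon shown above, and the second form (SMARCC1-202) held 10.6% ± 1.37 of the TPM of the isoforms that carry either exon in SCR, 21.5% ± 1.47 after DHX34 knockdown and 20.3% ± 1.54 after UPF1 knockdown (SD, n = 3), as recomputed per library. The SETD1A event sets SETD1A-201 against SETD1A-202, a form of 315 bases that starts at chr16:30958296-30958384. SETD1A-202 held 9.42% ± 5.48, 19.7% ± 9.39 and 18.4% ± 5.52 in the 3 groups, and the groups overlapped. It rests on 2.76 to 11.6 expected counts in an SCR library and 10.8 to 29.9 in a knockdown library. These shares are given as a description, since the events were listed from these libraries.

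The KMT2D event is an exon of 48 bases at chr12:49024053-49024100 (minus strand). It is printed in capitals because no KMT2D isoform of GENCODE release 44 holds it, with 2 bases of intron on each side in lower case.
KMT2D listed exon: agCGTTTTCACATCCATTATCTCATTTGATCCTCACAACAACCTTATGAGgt
Its length is a multiple of 3, and counted from its first base it holds 1 stop codon in frame 1, 0 in frame 2 and 1 in frame 3. Its inclusion could not be recomputed here, nor could the MGA event, whose second first exon (chr15:41668895-41669958) begins no isoform of that release. KMT2D-201 carries the junction that skips the KMT2D exon, and MGA-202 carries the first form of the MGA event.

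Other genes of the same pathways were taken from 7 lists, each without the 10 genes above. Of 97 listed genes 95 were tested in each comparison. After DHX34 knockdown 11 rose (11.6%) and 8 fell (8.42%), where 5.54% of all genes rose and 4.86% fell. After UPF1 knockdown 16 rose (16.8%) and 14 fell (14.7%), where 12.4% and 12.9% of all genes did. After removal of the length trend 5 were higher and 11 lower after DHX34 knockdown, and 7 higher and 18 lower after UPF1 knockdown. With length-scaled counts the counts were 4 and 2, and 9 and 11. The lists were chosen with earlier results of these data known, and no test was run on them.

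**Figure D4:**
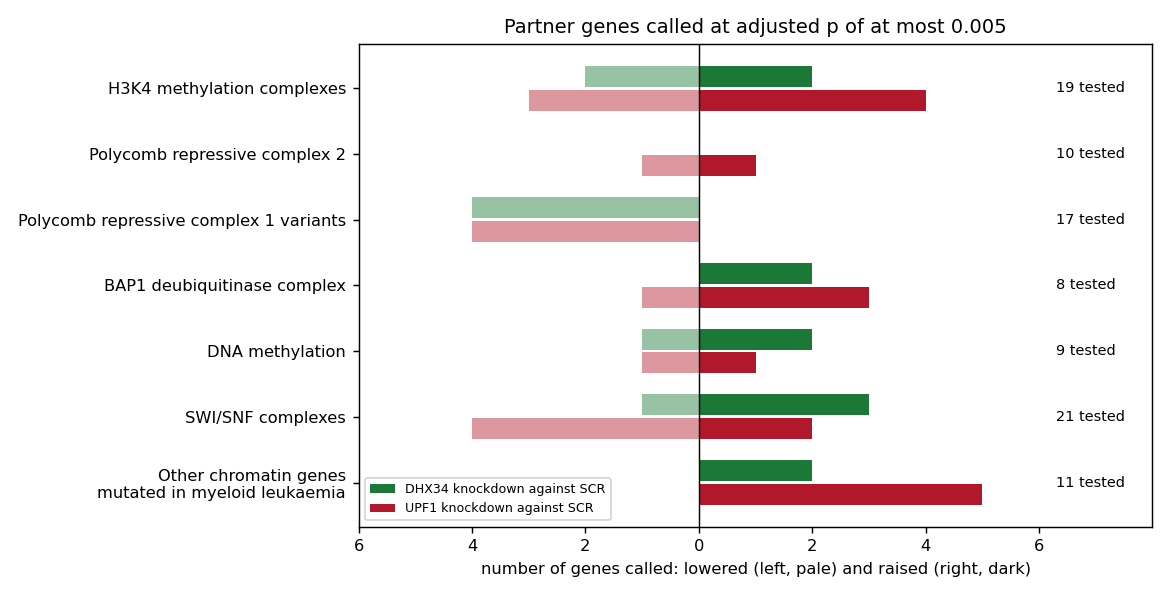
Number of genes called in each list, raised to the right in dark bars and lowered to the left in pale bars, for both knockdowns against SCR. The list labelled Polycomb repressive complex 1 variants has 4 lowered and 0 raised genes of 17 in each knockdown. Over all genes 4.86% were lowered after DHX34 knockdown and 12.9% after UPF1 knockdown. The calls are those without removal of the length trend.

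Of 19 genes listed for the H3 lysine 4 methylation complexes, demethylases included, 2 rose and 2 fell after DHX34 knockdown and 4 rose and 3 fell after UPF1 knockdown. Over all genes the shares were 5.54% and 4.86% after DHX34 and 12.4% and 12.9% after UPF1 knockdown. The demethylase KDM6B rose after DHX34 knockdown (log2 0.30, edgeR adjusted p 0.00359), a call lost after removal of the length trend (edgeR adjusted p 0.0573). KMT2A, the methyltransferase rearranged in acute leukaemia, rose after DHX34 knockdown from 78.8 ± 2.61 to 106 ± 11.7 CPM (log2 0.42, edgeR adjusted p 0.000974), a call lost without SCR replicate 1 or 3 and with length-scaled counts (edgeR adjusted p 0.0394). PAXIP1, a subunit of the KMT2D complex, rose after UPF1 knockdown from 5.58 ± 0.82 to 12.8 ± 1.45 CPM (log2 1.19, edgeR adjusted p 6.2e-06). DPY30, a subunit shared by these complexes, fell in both (log2 -0.30 and -0.46, edgeR adjusted p 0.00314 and 2.05e-05). The DHX34 call of DPY30 was lost in all 6 fits that left out a library, after removal of the length trend (edgeR adjusted p 0.0403) and with length-scaled counts (edgeR adjusted p 0.0169), and the UPF1 call held in all of these. Of 10 genes of Polycomb repressive complex 2, 0 were called after DHX34 knockdown, and after UPF1 knockdown PHF1 rose (log2 0.29, edgeR adjusted p 0.000194) and RBBP4 fell (log2 -0.14, edgeR adjusted p 0.00141). These counts lie near the shares over all genes (5.54% and 4.86% after DHX34, 12.4% and 12.9% after UPF1 knockdown). RBBP4 lost its call when any one library other than SCR replicate 2 was left out.

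Of 17 genes listed for Polycomb repressive complex 1, not all of them particular to its variant forms, 4 fell and 0 rose in each knockdown. Over all genes 4.86% fell after DHX34 and 12.9% after UPF1 knockdown. The list's median was -0.07 and -0.10 on the log2 scale against 0.02 over all genes. With length-scaled counts 0 were called lower after DHX34 knockdown and 3 after UPF1 knockdown. RYBP, a subunit of the variant forms, fell in both (log2 -0.28, edgeR adjusted p 0.00292, and -0.24, edgeR adjusted p 0.000894). RING1 (log2 -0.22) and BMI1 (log2 -0.22) fell after DHX34 knockdown (edgeR adjusted p 0.00152 and 0.00147), and MAX, the partner of MGA, fell after UPF1 knockdown (log2 -0.24, edgeR adjusted p 0.000155). The DHX34 calls of RYBP, RING1 and BMI1 each held in 1 of 6 fits that left out a library (without DHX34 knockdown replicate 1 for RYBP and replicate 3 for the others). All 3 held after removal of the length trend and were lost with length-scaled counts (edgeR adjusted p 0.0132, 0.0052 and 0.372), as were the UPF1 calls of RYBP (edgeR adjusted p 0.00622) and MAX (edgeR adjusted p 0.0459). Of 8 tested genes around BAP1, 2 rose and 0 fell after DHX34 knockdown (HCFC1 and ASXL2, log2 0.25 and 0.24, edgeR adjusted p 0.00183 and 0.00454), and 3 rose and 1 fell after UPF1 knockdown. Over all genes 5.54% rose and 4.86% fell after DHX34 knockdown, and 12.4% rose and 12.9% fell after UPF1 knockdown. With the length trend removed 0 of the 8 were called higher after UPF1 knockdown. Neither DHX34 call passed after removal of the length trend (edgeR adjusted p 0.213 and 0.367).

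Of 9 tested genes of DNA methylation, 2 rose and 1 fell after DHX34 knockdown, where 5.54% and 4.86% of all genes did. After UPF1 knockdown 1 rose and 1 fell, near the shares over all genes (12.4% and 12.9%). IDH1, whose mutant form blocks TET2, was at 65.7 ± 2.75 CPM in SCR, 54.7 ± 2.11 after DHX34 knockdown and 86.2 ± 1.96 after UPF1 knockdown (SD, n = 3). It fell by 0.27 on the log2 scale after DHX34 knockdown (edgeR adjusted p 0.00188), rose by 0.38 after UPF1 knockdown (edgeR adjusted p 6.49e-06) and differed between the knockdowns by 0.67 (edgeR adjusted p 3.76e-07). The fall after DHX34 knockdown was called in 2 of 6 fits that left out a library (without DHX34 knockdown replicate 1 or 3) and not with length-scaled counts (edgeR adjusted p 0.0155). IDH2 and TET1 rose after DHX34 knockdown (log2 0.48 and 0.35, edgeR adjusted p 0.000106 and 0.000139) and were lower after UPF1 than after DHX34 knockdown (log2 -0.43 and -0.39, edgeR adjusted p 6.06e-05 and 2.01e-05). The rise of TET1 after DHX34 knockdown did not pass after removal of the length trend (edgeR adjusted p 0.0194).

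Of 21 genes of the SWI/SNF complexes, 3 rose and 1 fell after DHX34 knockdown, where 5.54% and 4.86% of all genes did. After UPF1 knockdown 2 rose and 4 fell, where 12.4% and 12.9% of all genes did. SMARCA2, one of the ATPase subunits, rose in both (log2 0.44, edgeR adjusted p 0.00031, and 0.37, edgeR adjusted p 0.000162), and neither call passed with length-scaled counts (edgeR adjusted p 0.0417 and 0.00887). SMARCC2, the paralog of SMARCC1, rose after DHX34 knockdown from 97.1 ± 5.51 to 119 ± 0.91 CPM (log2 0.30, edgeR adjusted p 0.000987), and reads shared with SMARCC1 were divided by salmon. This call was lost after removal of the length trend (edgeR adjusted p 0.0066), with length-scaled counts (edgeR adjusted p 0.00894) and without DHX34 knockdown replicate 1. Of 11 other chromatin genes mutated in myeloid leukaemia, 2 rose after DHX34 knockdown (CREBBP and EP300, histone acetyltransferases, log2 0.38 and 0.27, edgeR adjusted p 0.000613 and 0.00401) and 5 after UPF1 knockdown, CREBBP among them (log2 0.24, edgeR adjusted p 0.00402). Over all genes 5.54% rose after DHX34 and 12.4% after UPF1 knockdown. EP300 was called in 0 of 6 fits that left out a library and not after removal of the length trend (edgeR adjusted p 0.127). The DHX34 call of CREBBP held with the trend removed and was lost without SCR replicate 1 or 3. Its UPF1 call was lost with the trend removed (edgeR adjusted p 0.177) and held without SCR replicate 2 or UPF1 knockdown replicate 3 alone. With the trend removed 0 of the 11 were called higher and 1 lower after UPF1 knockdown.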

How the data were processed

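Poly(A) RNA of 9 K562 libraries was measured, 3 per group by the labels. The authors quantified reads with salmon against Ensembl release 93 on GRCh38, and the deposited tables give expected counts, TPM and effective lengths per transcript. Columns of the authors' own comparisons (sleuth and SUPPA2 p-values, effects and differences) were not used, only the identity of listed events. Transcripts were joined by identifier to GENCODE 44 (97.9% of 203027 matched, holding 98.1% of counts, 85.8% with equal length). Counts of 73478797 to 103625443 per library were summed per gene and rounded. The tests were edgeR 4.0.16 (quasi-likelihood, TMM, filterByExpr with a minimum count of 10, the 6 libraries of each pair of groups) in R 4.3.3, diffSpliceDGE with Simes p-values, and limma 3.58.1 for the NMD-biotype ratio (pseudocount 0.1 TPM, genes of at least 1 TPM and 0.1 TPM of NMD-biotype isoforms). In single-transcript fits with 0 counts in a group the fitted fold is not reported, and a bound is given instead. DESeq2 1.42.0, length-scaled counts, limma on TPM, a lowess removal of the length trend, a replicate block and fits leaving out each library were alternatives. On data simulated from the DHX34 knockdown and SCR libraries, the gene test recovered 80% of 200 genes changed 2-fold, with 1 false call, the transcript test 32% of 200 changed 4-fold with 2, and the NMD ratio test 66% of 200 changed 4-fold with 7.

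Same-numbered UPF1 knockdown and SCR libraries had correlated deviations (r of 0.466, 0.114 and 0.297 over 10063 genes), but UPF1 knockdown replicate 2 matched SCR replicate 3 best. The labels state no pairing, so the block by replicate number was run only as an alternative. All 10 genes are named, with the isoform of highest mean TPM, called isoforms, leading isoforms of usage calls, NMD-biotype isoforms of at least 0.5 TPM in a group, listed events, and up to 3 called genes per pathway list. Members and lists were chosen with earlier results of these data known, and the study itself lists splicing events of KMT2D, MGA, SETD1A and SMARCC1 from these libraries. Sequences are from GRCh38. No replicate pair agreed within sampling noise.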

Additional observations from a re-analysis of the deposited data

Results flagged for a closer look

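EZH2 differed between the knockdowns, with a log2 difference of 0.27 (all 3 UPF1 knockdown libraries lay above the 3 DHX34 knockdown libraries in CPM). SETD1A differed by -0.24 on the same scale, lower in the UPF1 knockdown without overlap of the libraries in CPM. MGA was called between the knockdowns in transcript usage (diffSpliceDGE adjusted p 4.84e-06), where MGA-210 was at 0 counts in each DHX34 knockdown library. Limma on transcript shares did not call it (limma adjusted p 0.128), and the sum of MGA-201 and MGA-210 overlapped between the knockdowns. In the simulated data 61.6% of diffSpliceDGE calls were false. EZH2, SETD1A and MGA usage were each flagged because the direct comparison of the 2 knockdowns passed its threshold.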

How the results depend on the processing

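Over the alternative fits of each comparison, the log2 estimates of the 10 genes kept direction and side of the threshold in 103 of 140 for DHX34, 103 of 140 for UPF1 and 118 of 140 between the knockdowns. After DHX34 knockdown the count of 3 called genes became 1 with the length trend removed (EZH2, not one of the 3), 4 with DESeq2, 2 with all 9 libraries, 0 with length-scaled counts, 0 with limma on log2(TPM + 0.1) or log2(TPM + 0.5), 1 with the replicate block, 5 at an adjusted p of 0.05 and 0 to 2 without one library. After UPF1 knockdown 3 became 4 with DESeq2 or the replicate block, 2 with the trend removed (KDM6A and SETD1A), 1 with all 9 libraries, 0 with length-scaled counts, 5 with no low-count filter, 6 at 0.05 and 1 to 2 without one library. Between the knockdowns 2 became 3 with DESeq2, all 9 libraries, the trend removed, no low-count filter or 0.05, 1 with length-scaled counts, with limma at either pseudocount and with the replicate block, and 1 to 3 without one library. The 1 isoform called after DHX34 knockdown became 4 with DESeq2, 0 with the replicate block, 2 at 0.05 and 0 without any one library. The 0 isoforms after UPF1 knockdown became 8 with DESeq2, 1 and 2 with limma at 0.1 and 0.5, and 6 at 0.05, and the 0 between the knockdowns 2 with DESeq2 and 2 at 0.05. Usage calls after DHX34 knockdown fell from 2 to 1 with limma on shares or isoforms of at least 1 TPM, those between the knockdowns from 1 to 0 with either, and after UPF1 knockdown 1 to 2 were called without one library (MGA was added without SCR replicate 2 or 3). The setting of at least 1 TPM left out MGA-210 itself, so MGA could not be called there through that isoform. The NMD ratio after UPF1 knockdown gave 0 to 1 without one library. Signs turned for genes that were not called, except ASXL1 after UPF1 knockdown with length-scaled counts (-0.037). After DHX34 knockdown these were MGA (-0.084), SMARCC1 (-0.081), ASXL1 (-0.0058) and BCOR (-0.027) with the trend removed, ASXL1 with length-scaled counts (-0.093), and EZH2 with limma (0.026 at both pseudocounts). After UPF1 knockdown they were SETD1A with limma (0.21 at both), SMARCC1 (-0.089) and BCOR (-0.11) with the trend removed, BCOR with length-scaled counts (-0.019), and SMARCC1 and BCOR without SCR replicate 1 (-0.025 and -0.019, with ranges over the left-out libraries up to 0.043 and 0.042). Between the knockdowns they were KMT2D with length-scaled counts (0.041), with limma (0.065 and 0.062) and without one library (-0.14 to 0.045), SMARCC1 with limma (0.029 at both) and without one library (-0.021 to 0.0040, above 0 without UPF1 knockdown replicate 1), and KDM6A with length-scaled counts (-0.0098). The cause was not tested. DHX34 knockdown libraries share only a number with SCR (r of -0.0655, -0.184 and -0.403) and with UPF1 knockdown (-0.178, 0.144 and -0.198), and no sample pair was crossed. In the comparison of UPF1 knockdown with SCR the replicate block added KMT2D and changed no other gene call.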
